A study of Mus musculus with 6 samples.

Results

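The giant and thick-filament scaffold genes of skeletal muscle were described in GAS (gastrocnemius) muscle of WT and muscle-specific *Tet3* knockout (mKD) mice. The members were the rows of the deposited table with the gene names *Ttn*, *Neb*, *Obsl1*, *Mybpc1*, *Mybpc2*, *Myom1*, *Myom2*, *Myom3* and *Xirp2*. All 9 were found among the 22027 genes of the table, and all 9 passed the filter on low counts that left 12322 genes for testing. Every member was therefore accounted for in each comparison.

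RNA-seq of poly(A)-selected RNA was performed on 3 WT and 3 mKD libraries. All mice were female, 14 weeks old and fed regular chow, and the label gives every library a time of 48 h without saying of what. Both genotypes carried floxed *Tet3* alleles. The WT mice were floxed littermates and the mKD mice also carried the HSA-Cre79 transgene, whose Cre recombinase is driven by the human α skeletal actin promoter, so that cell types other than muscle fibres should keep *Tet3*. For the TET3 that remains, the paper names these other cells and incomplete deletion in some muscle cells as possible sources. The paper describes the mice of a genotype as biological replicates, and the labels number the libraries 1 to 3.

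The sarcomere is the contractile unit of striated muscle, in which myosin thick filaments slide along actin thin filaments. Titin runs from the Z-disc to the M-band as a molecular spring and a scaffold of the thick filament, and nebulin lies along the thin filament. Myosin-binding protein C decorates the thick filament, and the myomesins cross-link thick filaments in the M-band, where the product of *Obsl1* also binds titin and myomesin. Xin actin-binding repeat protein 2 binds actin filaments near the Z-disc and the sites where myofibrils attach to the membrane.

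The libraries held 16219227 (WT 1) to 32148270 (mKD 2) reads, and the fewest reads of any member in a library was 1220, so counting error was small for each of the 9 genes. *Tet3* had 594, 536 and 708 normalised counts in WT and 425, 318 and 472 in mKD, every mKD library below every WT library. Its log2 fold change was -0.60 (standard error 0.18, adjusted p = 0.18 in limma), and as *Tet3* itself has a transcript of 10904 nucleotides, -0.22 (standard error 0.18) was left once the length trend described below was removed. The muscle fibre markers, 8 of 8 detected, summed to 3556274 to 4392191 in WT and 3379501 to 4123462 in mKD. The other cell types were less even. The 10 Schwann cell markers summed to 2383 to 2473 in WT but to 38407, 1819 and 11758 in mKD 1, 2 and 3. The 7 endothelial markers summed to 9795 to 10440 in WT and 5652 to 7096 in mKD, and all 7 had a log2 fold change below 0. At 1.2-fold with p under 0.05 in limma 6 of 7 were lower, against 9.51% of all genes tested. With the length trend removed 5 of 7 were lower, against 5.46%. *Cdh5* (VE-cadherin) was the most abundant endothelial marker, with a log2 fold change of -0.96. The 6 adipocyte markers summed to 13.9 to 1289 in WT and 1160 to 5698 in mKD, and no marker was at 0 in all 6 libraries. At 1.2-fold with p under 0.05 in limma, 1 of 9 fibroblast and tendon markers, 0 of 6 macrophage markers, 1 of 3 tested satellite cell markers, 1 of 4 smooth muscle markers and 0 of 5 blood markers were lower, and 1 smooth muscle marker was higher. By that rule 1 of 8 muscle fibre markers was lower and 1 higher, and 1 Schwann cell and 2 adipocyte markers were higher. Log2 fold changes were below 0 in 9 of 9 fibroblast and tendon, 5 of 6 macrophage and 3 of 3 satellite cell markers. The same held for 2 of 4 smooth muscle and 1 of 5 blood markers, against 48.9% of all genes. In whole muscle, fewer cells of a type and less RNA per cell cannot be told apart. The part that these cell types had in the results below was not tested.

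Transcripts of titin, nebulin and Xin actin-binding repeat protein 2 were lower in mKD muscle, and the other 6 members did not pass the test. At 1.2-fold with p under 0.05 in limma, 3 of 9 members were called lower and 0 higher, against 9.51% of all genes tested called lower and 8.31% called higher. The 3 called genes were those whose longest annotated transcript exceeds 10000 nucleotides. The 6 members of 3611 to 5679 nucleotides had log2 fold changes, mKD minus WT, between -0.29 and 0.03. Long transcripts across the whole table were also lower in mKD, and once that trend was removed from each library 0 of 9 members were called by limma, against 5.46% of all genes called lower and 5.04% called higher. None of the 9 then had an unadjusted p under 0.05 in limma, against 10.8% of all genes.

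*Ttn*, the titin gene, spans 76703980 to 76982547 on the minus strand of chromosome 2 (GRCm38), with 347 exons and 106824 nucleotides in its longest annotated transcript. Among WT mice 273378, 222058 and 222992 normalised counts were measured, and among mKD mice 107960, 125863 and 128470. The genotypes did not overlap, and the highest mKD library lay well below the lowest WT library. The mean was 239476 ± 29364 (SD, n = 3) in WT and 120764 ± 11165 (SD, n = 3) in mKD. The log2 fold change was -0.99 (standard error 0.16, 95% interval -1.36 to -0.61), with an adjusted p of 0.091 over all genes in limma. The two-sided exact permutation test of the 6 values gave p = 0.10, the smallest that 3 against 3 allow. *Ttn* took 0.842% to 1.06% of the reads in WT libraries and 0.427% to 0.488% in mKD libraries.

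*Neb* encodes nebulin, which binds actin along the thin filament and takes part in setting its length. It lies on chromosome 2 from 52136647 to 52378474 on the minus strand, with 157 exons and 22489 nucleotides. WT libraries had 222602, 228024 and 187450 normalised counts, whereas mKD libraries had 122405, 150097 and 157813. Each mKD library was again below each WT library, with the lowest count in mKD 1. The log2 fold change was -0.57 (standard error 0.17, 95% interval -0.97 to -0.18, adjusted p = 0.18 in limma), and the exact permutation p was 0.10.

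*Xirp2* lies on chromosome 2 from 67446002 to 67526614 on the plus strand, and its longest transcript has 9 exons and 11979 nucleotides. WT mice had 107875, 79627 and 62703 normalised counts, against 44609, 47717 and 61656 for mKD mice. The genotypes were separated only narrowly, since WT 3 and mKD 3 lay close together, and WT 1 stood highest. The log2 fold change was -0.68 (standard error 0.22, 95% interval -1.19 to -0.16, adjusted p = 0.20 in limma), with an exact permutation p of 0.10. The call was lost when WT 1 or mKD 1 was left out, each time in a smaller fit. Without WT 1 the log2 fold change was -0.48 (95% interval -0.96 to 0.01), and without mKD 1 it was -0.58 (95% interval -1.18 to 0.0098), and neither passed the test.

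The genotypes did not overlap in 3 of 9 members, all lower in mKD, against 12.7% of all genes tested. At an adjusted p under 0.05 limma called 0 of 9 members (0.0162% of all genes) and edgeR called 0, while 3 members had an unadjusted p under 0.05 in limma, against 18.1% of all genes. DESeq2 on the recovered reads called the same 3 genes, with an adjusted p of 2.8e-08 for *Ttn*, 0.011 for *Neb* and 0.038 for *Xirp2*, against 3.22% of all genes it tested called lower. Leaving out mKD 1 and mKD 3, whose Schwann cell sums were high, left mKD 2 alone against the 3 WT libraries, so that the spread came from WT only and mKD 2 was assumed to vary in the same way. Log2 fold changes were then -0.92 for *Ttn*, -0.50 for *Neb* and -0.77 for *Xirp2*, values given here without a test.

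**Figure D1:**
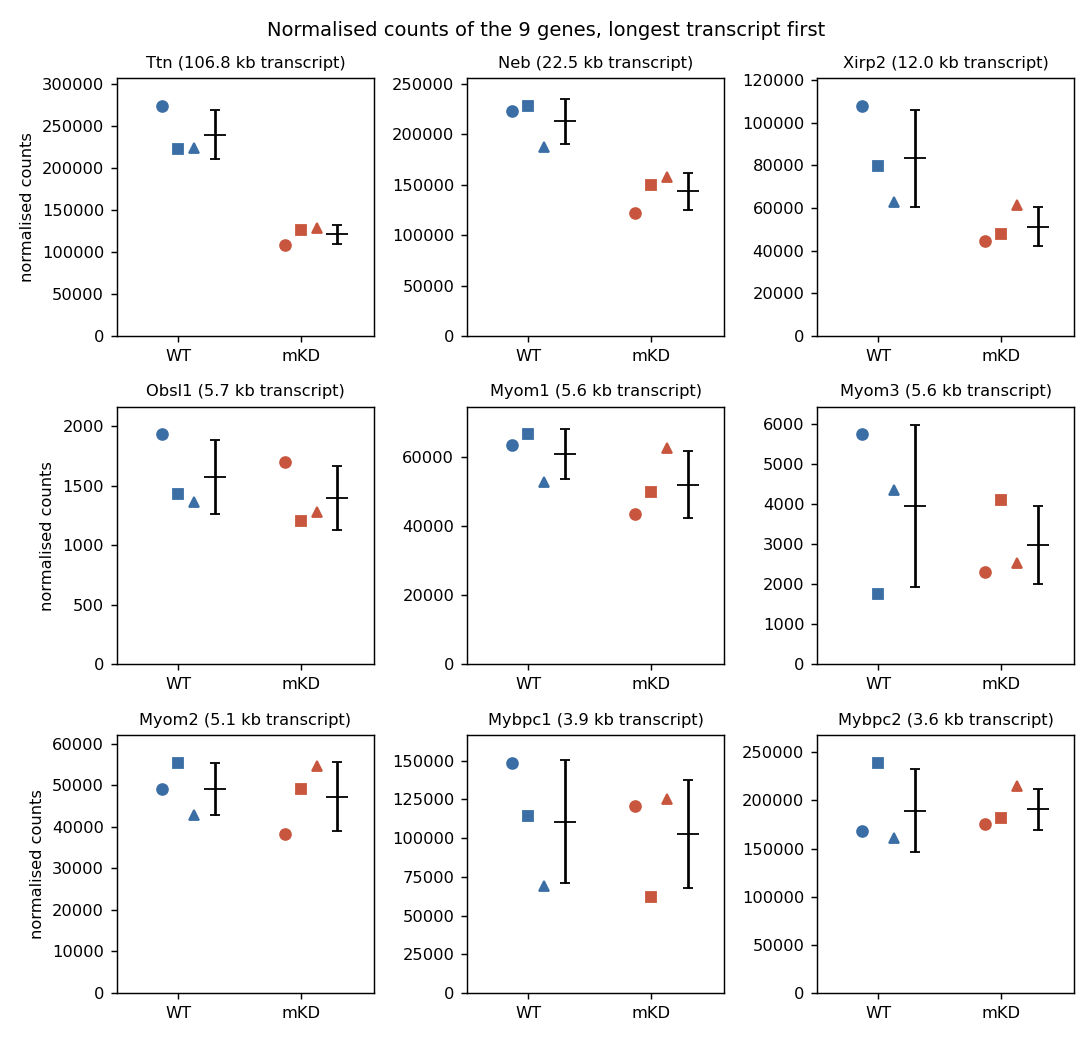
Normalised counts of each of the 9 genes by genotype, ordered by longest transcript; points are single libraries (circle, square and triangle for libraries 1, 2 and 3), and bars give the mean and SD. *Ttn*, *Neb* and *Xirp2* have every mKD point below every WT point, and the points of the other 6 genes overlap.

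The promoters are shown for 2 of the called members and for the most abundant member per length. The reason is that TET3 acts on cytosines in CG dinucleotides, and DNA methylation was not measured here. For muscle the paper describes a different action of TET3, on the stability of the coactivator protein PGC-1α. The windows are RefSeq sequences of GRCm38.p6, 300 bases from 250 before to 50 after the annotated start, and 7 of 9 members had one. Capitals mark the E-box letters CANNTG, which muscle regulatory factors of the MyoD family bind, and CTAAAAATA, a form of the site of MEF2 factors, both searched on both strands. They are printed 5′ to 3′ on the strand of the gene.
Ttn, chr2:76982498-76982797, minus strand: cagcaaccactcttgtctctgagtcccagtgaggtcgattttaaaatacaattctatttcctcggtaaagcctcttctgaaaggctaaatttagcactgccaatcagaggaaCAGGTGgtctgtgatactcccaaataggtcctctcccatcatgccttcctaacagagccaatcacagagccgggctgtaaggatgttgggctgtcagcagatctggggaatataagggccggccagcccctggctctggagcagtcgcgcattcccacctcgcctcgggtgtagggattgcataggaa
Xirp2, chr2:67445752-67446051, plus strand: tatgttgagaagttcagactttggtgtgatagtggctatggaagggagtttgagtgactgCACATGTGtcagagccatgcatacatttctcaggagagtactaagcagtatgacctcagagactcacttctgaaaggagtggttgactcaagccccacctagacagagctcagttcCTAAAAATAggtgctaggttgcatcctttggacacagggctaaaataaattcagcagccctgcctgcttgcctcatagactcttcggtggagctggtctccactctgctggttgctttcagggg
Mybpc2, chr7:44524620-44524919, minus strand: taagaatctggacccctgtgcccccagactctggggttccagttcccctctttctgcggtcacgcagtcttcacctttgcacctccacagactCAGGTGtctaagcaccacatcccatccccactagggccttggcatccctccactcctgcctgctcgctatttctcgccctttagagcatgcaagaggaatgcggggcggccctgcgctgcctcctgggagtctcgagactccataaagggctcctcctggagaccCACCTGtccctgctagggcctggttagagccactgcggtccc
The *Ttn* window held 1 CANNTG and 8 CG, the *Xirp2* window 2 overlapping CANNTG, 1 CTAAAAATA and 1 CG, and the *Mybpc2* window 2 CANNTG and 9 CG. Among 32851 windows of this length, 72.3% held CANNTG and 0.517% held CTAAAAATA, and the median number of CG was 7. These matches describe letters in the window and say nothing of binding.

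*Myom1* and *Myom2* encode myomesin and M-protein, which link thick filaments in the M-band. *Myom1* had 63620, 66521 and 52781 normalised counts in WT and 43436, 49957 and 62694 in mKD. mKD 3 lay close to WT 1, so the genotypes overlapped, and the log2 fold change was -0.24 (standard error 0.17, 95% interval -0.64 to 0.16). *Myom2* had 49038, 55334 and 42739 in WT and 38203, 49036 and 54488 in mKD, with a log2 fold change of -0.06 (95% interval -0.46 to 0.34). Of the 36 pairs of members, these 2 had the most similar profile over the 6 libraries, with a root mean square difference of 0.110 in centred log2 counts. Within a library *Myom1* exceeded *Myom2* by 0.38, 0.27 and 0.30 on the log2 scale in WT mice, against 0.19, 0.03 and 0.20 in mKD mice. The mKD ratios all lay below the WT ratios, by 0.18 on average (exact permutation p = 0.1, adjusted p = 0.2 over 4 ratios). The difference was -0.13 with the length trend removed and -0.01 when the median annotated transcript was used as the length.

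*Myom3* encodes another myomesin, and *Obsl1* an adaptor that binds titin and myomesin. *Myom3* was the most variable member among WT libraries, with 5727, 1766 and 4337 normalised counts in WT and 2294, 4090 and 2534 in mKD. WT 2 was the lowest of all 6 libraries and the coefficient of variation was 51.0% in WT and 32.8% in mKD, where that of *Mybpc1* was 34.3%. Its log2 fold change was -0.29 (standard error 0.42, 95% interval -1.27 to 0.68), and it became -0.79 (95% interval -1.43 to -0.15) and passed the test when WT 2 was left out. *Obsl1* was the least abundant member, at 1932, 1435 and 1366 in WT and 1705, 1209 and 1283 in mKD. Library 1 was the highest in both genotypes, and the log2 fold change was -0.17 (standard error 0.18, 95% interval -0.59 to 0.25).

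*Mybpc1* and *Mybpc2* encode the slow and fast forms of myosin-binding protein C. *Mybpc1* had 148576, 114438 and 69016 normalised counts in WT and 120491, 62147 and 125313 in mKD, with WT 3 and mKD 2 well below the other 4 libraries. *Mybpc2* had 168585, 238920 and 160870 in WT and 176012, 181395 and 215330 in mKD, and WT 2 and mKD 3 were the highest. The log2 fold change was -0.11 (95% interval -0.92 to 0.71) for *Mybpc1* and 0.03 (95% interval -0.44 to 0.49) for *Mybpc2*. The interval of *Mybpc1* would hold changes of the size seen in *Neb* and *Xirp2*. The log2 ratio of *Mybpc1* to *Mybpc2* differed by -0.14 between genotypes (exact permutation p = 0.8, adjusted p = 0.8 over 4 ratios), and it turned to 0.18 without WT 1 and to 0.16 without mKD 2.

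The low and high libraries of *Myom3* and *Mybpc1* were set beside the slow-fibre genes, since the share of slow fibres can differ between pieces of GAS muscle. The 10 slow-fibre genes summed to 90175, 9455 and 218365 in WT and 53730, 149203 and 56216 in mKD. Their sum was lowest in WT 2, where *Myom3* was lowest, and highest in WT 3 and mKD 2, where *Mybpc1* was lowest. *Myh7*, the slow myosin heavy chain, ranged from 661 in WT 2 to 74831 in WT 3. None of the slow-fibre genes passed the test between genotypes, 0 of 10 lower and 0 of 10 higher, against 9.51% and 8.31% of all genes tested. What share of the spread of either member goes with fibre type was not tested.

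**Figure D2:**
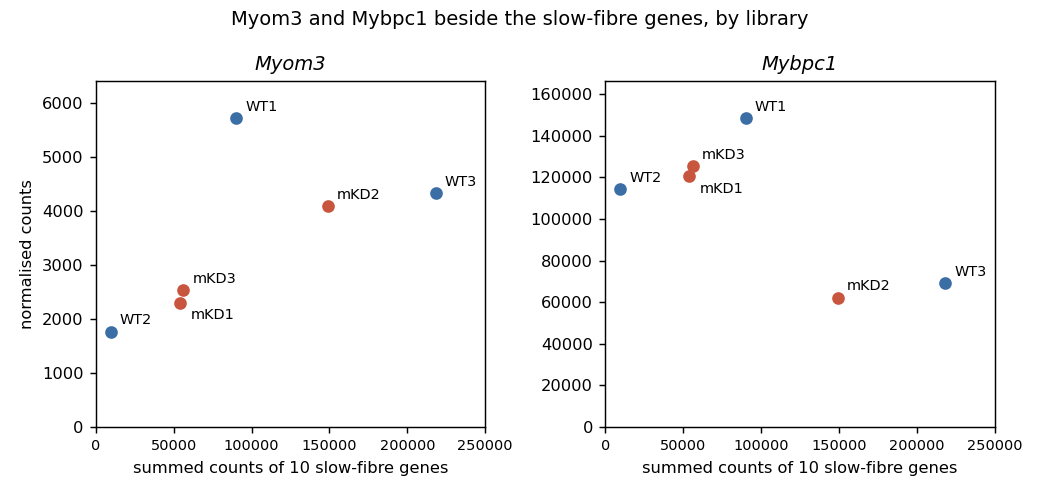
Normalised counts of *Myom3* and *Mybpc1* in each of the 6 libraries against the summed counts of 10 slow-fibre genes (blue, WT; red, mKD). *Myom3* is lowest in WT 2 at the lowest slow-fibre sum, and *Mybpc1* is lowest in WT 3 and mKD 2 at the 2 highest sums.

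Expressed per kilobase of the longest annotated transcript, the levels of the members spanned a wide range. In WT the normalised count per kilobase was 52467 for *Mybpc2*, 28219 for *Mybpc1*, 10796 for *Myom1*, 9663 for *Myom2*, 9458 for *Neb*, 6962 for *Xirp2*, 2242 for *Ttn*, 707 for *Myom3* and 278 for *Obsl1*. *Myom1*, *Myom2* and *Neb* were neighbours within their spread in WT. In mKD the value of *Neb* was 6378, that of *Xirp2* 4285 and that of *Ttn* 1130, with *Mybpc2* at 52870 and *Myom2* at 9309. The 9 genes together took 3.24% to 4.05% of the reads in WT libraries and 2.59% to 3.08% in mKD libraries.

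The long-transcript trend was measured over the whole table. Over 12315 genes with an annotated length, the Spearman correlation of log2 fold change with the longest transcript was -0.45, across genes, which are not independent replicates. Of 320 genes with at least 10000 nucleotides, 152 (47.5%) were called lower and 1 higher, with a median log2 fold change of -0.39. Of the 12 genes with at least 20000 nucleotides, 8 were called lower and 0 higher, with a median of -0.49. At the short end, 29.2% of the 1232 genes of 204 to 1463 nucleotides were called higher and 1.06% lower, with a median of 0.31. Over the 9 members the correlation was -0.90, and it was -0.5 with the length trend removed. The log2 fold change was below 0 in 8 of 9 members, against 48.9% of all genes. The median log2 fold change was -0.24 against 0.01 over all genes tested, and it was -0.06 without WT 1.

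**Figure D3:**
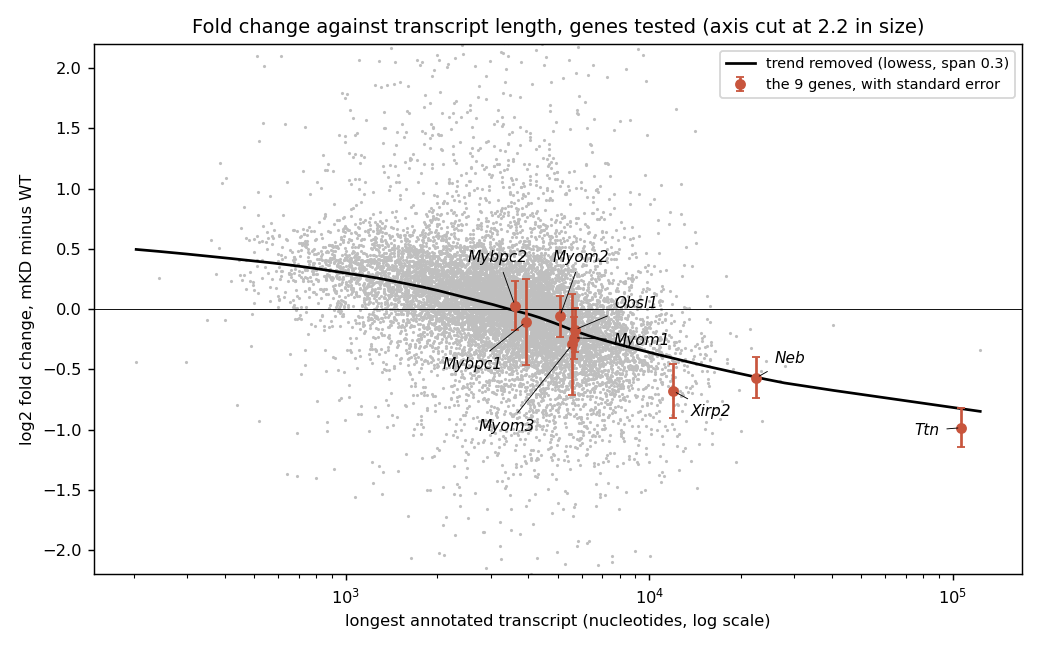
Log2 fold change, mKD minus WT, against the longest annotated transcript in nucleotides (log scale) for the genes tested (grey), with the 9 members and their standard errors (red) and the lowess trend (black); 103 genes lie beyond the axis, which ends at 2.2. *Ttn* at 106824 nucleotides has the lowest value of the members, -0.99, close to the falling trend, and the members under 10000 nucleotides lie near 0.

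Genes with a longest annotated transcript of similar length were used to place each long member. Which transcripts of these genes were present in the muscle was not tested. Within 0.25 log2 units of the length of *Neb* there were 9 other genes, with a median of -0.51 and 6 called lower, and *Neb* at -0.57 lay among them. Around *Xirp2* there were 244 genes with a median of -0.38, of which 108 were called lower and 51 had a more negative log2 fold change than *Xirp2*. *Ttn* had a single neighbour, *D10Wsu102e* with 123179 nucleotides and a log2 fold change of -0.34 (standard error 0.19), and only 1 other tested gene exceeded 30000 nucleotides, *D1Ertd622e* with 40378 nucleotides and a log2 fold change of -0.13 (standard error 0.25). With the trend removed these 2 genes were at 0.51 and 0.54, so the trend subtracted from *Ttn*, -0.83, lay well below both of them. Few genes had this length, and with a span of 0.3 the lowess curve there drew mostly on much shorter transcripts. What is left of *Ttn* after removal therefore depends on how the curve extends to that length. The 12 genes with at least 20000 nucleotides ranged from -1.01 (*Pclo*) to -0.13 (*D1Ertd622e*). Among them *Macf1*, a cytoskeletal linker with 23495 nucleotides, was at -0.93, *Syne1*, a nuclear envelope protein with 27908 nucleotides, was at -0.47, and *Hnrnpr*, an RNA-binding protein with 21452 nucleotides, was at -0.17.

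The trend was then subtracted library by library. At the length of *Ttn* the trend put the WT libraries 0.54, 0.30 and 0.37 above the mean of the 6 libraries on the log2 scale and the mKD libraries at -0.52, -0.40 and -0.35. *Ttn* itself was at 0.69, 0.39 and 0.40 in WT and at -0.65, -0.43 and -0.40 in mKD. The remainder came to 0.14, 0.08 and 0.02 for WT libraries and to -0.14, -0.04 and -0.06 for mKD libraries, small but still without overlap. The log2 fold change of *Ttn* with the trend removed was -0.16 (standard error 0.13, 95% interval -0.47 to 0.16, adjusted p = 0.68 in limma).

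**Figure D4:**
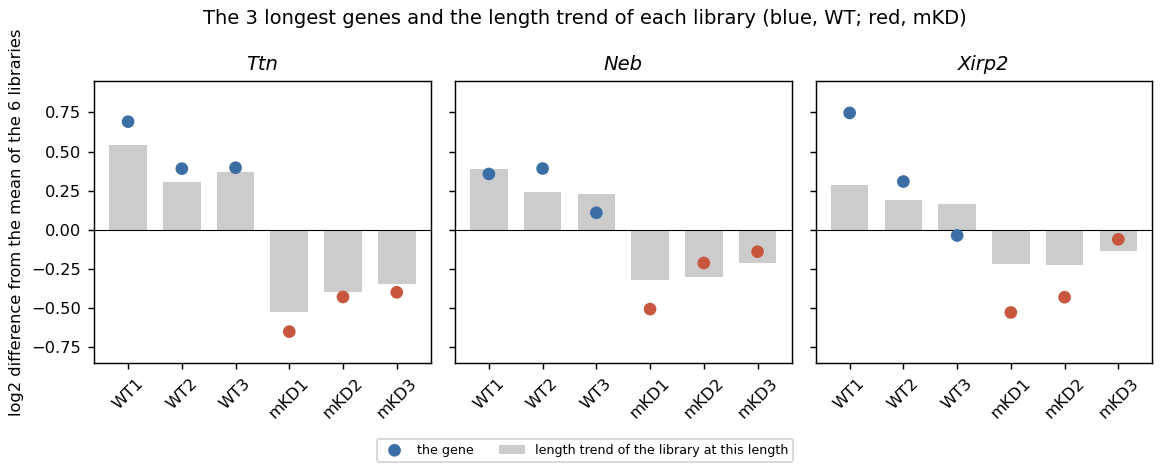
Deviation of each library (log2) from the average over the 6 libraries for *Ttn*, *Neb* and *Xirp2* (points; blue, WT; red, mKD) and for the length trend of that library at the same length (grey bars). The bars of *Ttn* run from 0.54 in WT 1 to -0.52 in mKD 1 and the points lie a little beyond them.

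For *Neb* the trend amounted to -0.57 between genotypes, and the log2 fold change that remained was -0.0064 (standard error 0.16, 95% interval -0.37 to 0.36). For *Xirp2* the trend amounted to -0.41 and the remainder was -0.27 (standard error 0.19, 95% interval -0.72 to 0.18). After removal, 1 of 9 members had genotypes that did not overlap with mKD lower (*Ttn*), against 8.69% of all genes, and 0 of 9 were called. The median over the members was -0.06. When the median annotated transcript was used as the length in place of the longest, *Ttn* at -0.93 and *Neb* at -0.55 were still called and *Xirp2* at -0.14 was not; the median of the 25 annotated *Ttn* transcripts is 2093 nucleotides.

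**Figure D5:**
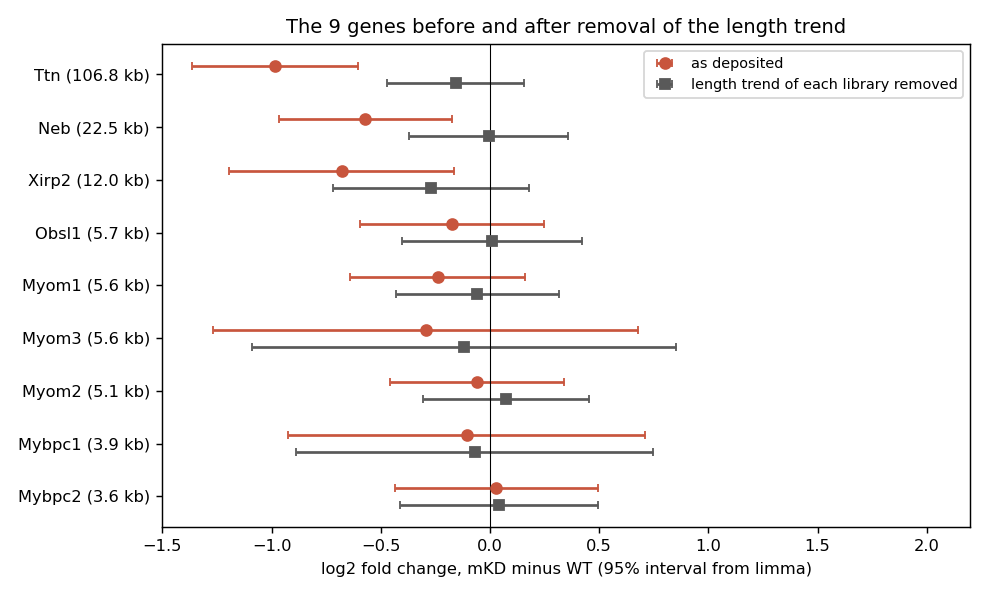
Log2 fold change, mKD minus WT, with the 95% interval from limma for the 9 genes as deposited (red circles) and with the length trend of each library removed (grey squares). The intervals of *Ttn*, *Neb* and *Xirp2* exclude 0 as deposited, and all 9 intervals include 0 with the trend removed.

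The log2 ratio of *Ttn* to *Neb* within a library came to 0.30, -0.04 and 0.25 for WT mice and to -0.18, -0.25 and -0.30 for mKD mice. It was lower in mKD by 0.41, with no overlap (exact permutation p = 0.1, adjusted p = 0.2 over 4 ratios), and by 0.15 with the trend removed (exact permutation p = 0.2). When the trend was taken as a straight line the difference turned to 0.05. The ratio of *Myom3* to *Myom2* differed by -0.23 (exact permutation p = 0.8), and it turned to 0.11 without WT 1 and to 0.01 without WT 3.

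Other sarcomere genes were counted from lists written for these members. Of 15 thin-filament genes (median length 1473 nucleotides), 0 were lower and 2 higher, against 17.1% higher among genes of 1463 to 2022 nucleotides. The median log2 fold change of the list was 0.22. With the trend removed 1 was lower and 0 higher and the median was 0.03, and the median was 0.02 in DESeq2 and -0.04 without WT 2. *Tnnc2*, the fast troponin C with a transcript of 700 nucleotides, rose with 219168, 276643 and 211508 normalised counts in WT and 357535, 331726 and 338135 in mKD (log2 fold change 0.55, standard error 0.18). With the trend removed it was at 0.19 (standard error 0.18) and no longer passed the test. Of 12 thick-filament motor and assembly genes, 1 was lower and 0 higher, against 9.51% lower and 8.31% higher among all genes tested. The median of this list was 0.17, and its sign depended on the setting. It was -0.10 in edgeR, -0.11 in DESeq2, -0.02 with the trend removed, -0.22 without WT 2 and -0.0079 without mKD 2. The lower gene was *Smyd1*, a methyltransferase needed for myosin assembly, at -0.35 (standard error 0.12), and it kept -0.36 with the trend removed.

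Of 22 Z-disc genes, 0 were lower and 2 higher, against 9.51% lower and 8.31% higher among all genes tested. The median of the list was 0.03 and ran from -0.10 to 0.14 when 1 library was left out. *Tcap* encodes the protein that caps titin in the Z-disc and has a transcript of 948 nucleotides. It had 73515, 71790 and 87744 normalised counts in WT and 146614, 131345 and 111911 in mKD, so that the cap transcript was higher and the titin transcript lower in every mKD library. Its log2 fold change was 0.74 (standard error 0.16, adjusted p = 0.13 in limma) and 0.43 (standard error 0.14) with the trend removed.

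Of 17 titin and nebulin partners, 3 were lower and 1 higher, against 9.51% lower and 8.31% higher among all genes tested. The median of the list was -0.05 and ran from -0.13 to 0.04 when 1 library was left out. With the trend removed 0 were lower and 0 higher and the median was 0.01. *Cmya5*, the costamere protein myospryn, fell with -0.55 (standard error 0.16) and was at -0.14 with the trend removed. Of 13 other long muscle transcripts (median length 15358 nucleotides), 8 were lower and 0 higher. Among all 51 genes with at least 15000 nucleotides, 60.8% were lower and 0 higher. The median log2 fold change of the list was -0.45, against -0.47 for those 51 genes. With the trend removed the median of the list became 0.06, and 1 gene stayed lower. *Cacna1s*, the voltage sensor of the T-tubule and the shortest gene of that list at 6251 nucleotides, fell with -0.55 (standard error 0.17) and was at -0.33 with the trend removed. Of 11 fast-fibre genes (median length 1082 nucleotides), 0 were lower and 3 higher, against 29.2% higher among genes of 204 to 1463 nucleotides. The median log2 fold change of the fast-fibre list was 0.12. With the trend removed 0 were lower and 0 higher and the median was -0.05. *Myh1*, a fast myosin heavy chain, was at -0.52 (standard error 0.41) without passing the test. Values that did not pass were also found for *Tmod1*, the tropomodulin that caps thin filaments (0.03, standard error 0.14), for *Mylpf*, the fast regulatory light chain (0.23, standard error 0.19), for *Tnnc1*, the slow troponin C (1.14, standard error 1.34), for *Synpo2* (-1.29, standard error 1.38) and for *Ankrd2* (0.72, standard error 0.82). Over 4 sarcomere lists, 3 of 15 genes with 5000 nucleotides or more were lower and 0 higher (median -0.30). Among all 2970 genes of that length 25.4% were lower. Of 51 shorter sarcomere genes, 1 was lower and 5 were higher (median 0.14). Their median length was 2277 nucleotides, and among all genes of 2022 to 2532 nucleotides 1.95% were lower and 11.9% higher.

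The genes outside the members whose centred log2 profile lay closest to the mean profile of the 9 over the 6 libraries were *Tlk1*, *Bod1l*, *Smc3*, *Lmod1* and *Tnks*, at root mean square distances of 0.026 to 0.044. Their log2 fold changes ran from -0.38 (*Lmod1*) to -0.30 (*Smc3*), beside -0.34 for the mean of the members. These genes were chosen for that profile, so the closeness of the fold changes follows from the choice. The least similar pair of members was *Mybpc1* and *Myom3*, with a distance of 0.837.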

How the data were processed

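RNA of GAS muscle was isolated with a fibrous-tissue kit, and poly(A) libraries were made with a kit that keeps strand. The authors deposited 1 table with a normalised signal for each gene in each library, equal to reads over a single size factor in each library. Partek Flow version 9.0.20.0622 was their software, with DESeq2 for the statistics. GRCm38 (mm10) stands in the submitters' processing notes. Aligner, counting tool and use of strand in counting: not given in the sources used here. Deposited by the authors beside these, log2 fold changes, p-values and 2 score columns (standard error and Wald statistic) come from their own DESeq2 comparison and were not used.

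Reads were recovered by division by the smallest positive value of each library, and 100% of values came out whole within 1e-04. Limma 3.58.1 with a trend (R 4.3.3) was fitted to log2(value + 1), with genotype as the only term, on the 12322 genes that pass the edgeR filter on low counts, with Benjamini-Hochberg adjustment over all of them. Fold changes are on this scale. Calls were made at 1.2-fold with p under 0.05, and at an adjusted p under 0.05. DESeq2 1.42.0 and edgeR 4.0.16 on recovered reads were alternatives. Transcript lengths come from GENCODE M21, and the length trend was a lowess curve (span 0.3) of the deviation of each library over log2 longest transcript. The fits were also run on simulated data, with and without a straight length slope that was alike within a genotype. Such data cannot test the lowess curve at the length of *Ttn*. Exact permutation tests were two-sided.

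The members and gene lists were chosen with earlier results of these data known. Named genes were the members, *Tet3*, the longest, shortest and smallest-p gene of each list, the 5 nearest profiles, and the most abundant marker of each other cell type. A few genes that come under it are left out here. Genes shown for their length alone were chosen after their values were seen. Alternatives were other scalings, filters, pseudocounts, lengths, thresholds, the replicate block and leaving out libraries.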

Additional observations from a re-analysis of the deposited data

How the results depend on the processing

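The 3 members called lower stayed 3 under edgeR, TMM and upper-quartile scaling, both other pseudocounts, no filter on low counts and a mean of at least 50. DESeq2 called 535 genes and 3 members at an adjusted p under 0.05. Removing the length trend by lowess left 673 genes lower, 621 higher and 0 at an adjusted p under 0.05, with 0 members; a straight line left 719 and 563 with 0 members, put the median of the members at -0.023 and turned *Ttn* to 0.038. At 1.5-fold 580 genes were lower and 312 higher, with 2 members lower (*Neb* fell short), and an adjusted p under 0.1 gave 71 genes and 1 member (*Ttn*). Without mKD 1 and 3, 734 genes were lower, 459 higher and 4 at an adjusted p under 0.05, with 1 member lower, but this sets mKD 2 alone against 3 WT libraries with the spread of WT only, so these counts carry no weight.

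Leaving out 1 library at a time gave 839 to 1193 genes lower, 581 to 1111 higher and 0 to 4 at an adjusted p under 0.05, with 2 to 4 members lower (2 without WT 1 or mKD 1, which lose *Xirp2*, and 4 without WT 2, which adds *Myom3*). Leaving out 1 library with the length trend removed, an alternative chosen after seeing the data, gave 0 to 1 members lower (*Xirp2*, without WT 3); *Neb* turned to 0.067 without WT 2 and 0.090 without mKD 1. The cause of these changes was not tested.

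The replicate numbers did not pair the libraries: same-numbered deviations correlated at 0.055, -0.051 and -0.076, and not every library correlated best with its own number. The replicate block left 3 members lower and 0 genes at an adjusted p under 0.05, and with the length trend removed 541 genes lower, 510 higher, 0 at an adjusted p under 0.05 and 0 members.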
